A study of Mus musculus with 6 samples.

Results

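The 10 genes described here encode the transcription factors and surface receptors by which myeloid progenitors and leukemia stem cells are usually recognised: Spi1, Cebpa, Runx1, Myb, Myc, Meis1, Hoxa9, Kit, Flt3 and Cd34. They were taken by their symbols and make up 10 of the 23284 genes measured. Spi1 is listed under its older symbol Sfpi1. C1498, the line sorted for RNA, is a murine line of acute myeloid leukemia (AML) that grows in C57BL/6 J mice. It was used here as 1 clone carrying green fluorescent protein (GFP) from a retrovirus. The cells were injected intravenously into wild-type young adult female mice and sorted from bone marrow as GFP+ CD49b+ cells on day 21, so every library in both groups carries the same GFP clone and passed the same gate. Of the 6 mice, 3 received cytarabine, a cytosine analogue that blocks DNA synthesis, and 3 were controls, which the labels call both PBS-treated and not treated. There was 1 library per mouse (cytarabine 1 to 3, control 1 to 3), and the values are FPKM, read counts scaled by transcript length and library size.

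Myeloid identity is set by a small circuit of transcription factors. PU.1 (from Spi1) and C/EBPα (from Cebpa) switch on granulocyte and monocyte genes, while RUNX1 and MYB open the enhancers on which they act. HOXA9 with its partner MEIS1 sustains self-renewal in many leukemias, MYC drives growth and division, and the receptor tyrosine kinases KIT and FLT3 and the sialomucin CD34 mark blood progenitors at the cell surface.

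The upstream sequences of Myb and Hoxa9 are printed because these genes stand near opposite ends of the expression range described next. The reference table of RefSeq promoters (GRCm38.p6) held 8 of the 10 genes, with 2 start sites each for Runx1 and Kit; the others were Myc and Spi1. The 250 bases before each start were searched on both strands for CACGTG (the E-box bound by MYC), GAGGAA (bound by PU.1), TGTGGT (RUNX), TGACAG (MEIS), TTTGGCG (E2F) and TATAAA (the TATA box), which share no overlap in these windows. Capitals mark a match on either strand.
Myb, chr10:21160985-21161234, minus strand: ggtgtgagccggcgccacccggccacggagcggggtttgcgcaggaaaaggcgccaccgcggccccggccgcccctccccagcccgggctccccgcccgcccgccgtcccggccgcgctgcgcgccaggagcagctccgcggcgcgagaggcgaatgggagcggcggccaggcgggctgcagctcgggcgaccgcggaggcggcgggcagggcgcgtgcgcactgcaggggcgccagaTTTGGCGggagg
Hoxa9, chr6:52227371-52227620, minus strand: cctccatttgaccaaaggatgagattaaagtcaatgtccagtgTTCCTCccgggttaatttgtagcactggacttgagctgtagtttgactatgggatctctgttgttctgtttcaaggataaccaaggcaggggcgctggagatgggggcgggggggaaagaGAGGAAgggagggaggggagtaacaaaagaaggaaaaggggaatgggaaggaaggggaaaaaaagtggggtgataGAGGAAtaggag
The Myb window was 81.2% G and C with 40 CpG pairs, more pairs than in 98.7% of 27025 genes, and held TTTGGCG, which occurs in 1.28% of all windows. The Hoxa9 window had 3 CpG pairs and 3 matches to GAGGAA, a motif present in 23.1% of all windows. GAGGAA was also found in the downstream of the 2 Runx1 windows and in the 2 Kit windows, which overlap almost wholly and share the match. CACGTG was found in the upstream Runx1 window, TGTGGT in that of Meis1 and TATAAA in that of Cebpa. No letters searched for were found upstream of Flt3 or Cd34, and TGACAG was found in none of these windows. These are matches of letters, not measured sites.

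The libraries differed in ways that only partly crossed the groups. Transcripts of colon epithelium (8 of 9 fixed markers listed) summed to at least 1564 FPKM in 3 libraries (3148 in cytarabine 2, 3494 in cytarabine 3, 1564 in control 1) and to far less in the rest (251 in cytarabine 1, 18.7 in control 2, 19.8 in control 3). Smooth muscle markers (6 genes) divided the libraries in the same way, at 953 to 1165 FPKM against 24.3 to 167 FPKM. The 8 heart markers were highest in control 1 (2930 FPKM) and lowest in cytarabine 1 (7.75 FPKM). Median log2 fold changes, cytarabine minus control, were 3.33 for the colon, 2.05 for the smooth muscle and -2.27 for the tested heart markers. None of these markers had an unadjusted p under 0.05 from limma. Early myeloid granule markers (5 of 5 listed) reached 268 FPKM in cytarabine 1 and 9.95 to 35.8 FPKM elsewhere. The 9 neutrophil markers summed to 193 to 202 FPKM in cytarabine 2 and 3 and to 1436 FPKM in cytarabine 1. In controls they summed to 1443 to 2050 FPKM, so these sums did not overlap between the groups, though cytarabine 1 was close to control 1. They also stayed lower with cytarabine within each side of the colon division. Differences of the 10 genes are therefore given also within each side of the colon division, and those of other genes are not. On both sides the colon sums were still higher with cytarabine, so these differences do not hold colon content equal. Library totals inferred from the steps between low FPKM values lay between 11540000 and 18830000 reads.

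Myc was the most abundant of the 10 transcripts in every library, and Myb was the second. On the FPKM scale, which is per length, Myc averaged 33.7 FPKM over the 6 libraries and Myb 12.96 FPKM. The other 8 genes averaged less than 5 FPKM: Spi1 4.61, Cd34 3.72, Runx1 2.79, Cebpa 1.30, Meis1 1.01, Kit 0.887, Hoxa9 0.365 and Flt3 0.154 FPKM. Myc exceeded Myb in 6 of 6 libraries and Myb exceeded Spi1 in 6 of 6, with ranges that did not meet. Below them every pair of neighbours in this order had overlapping ranges, and Spi1 exceeded Cd34, like Cd34 Runx1, in only 3 of 6 libraries and Meis1 exceeded Kit in 2 of 6. In bulk samples fewer cells of a type and less RNA per cell cannot be told apart.

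**Figure D1:**
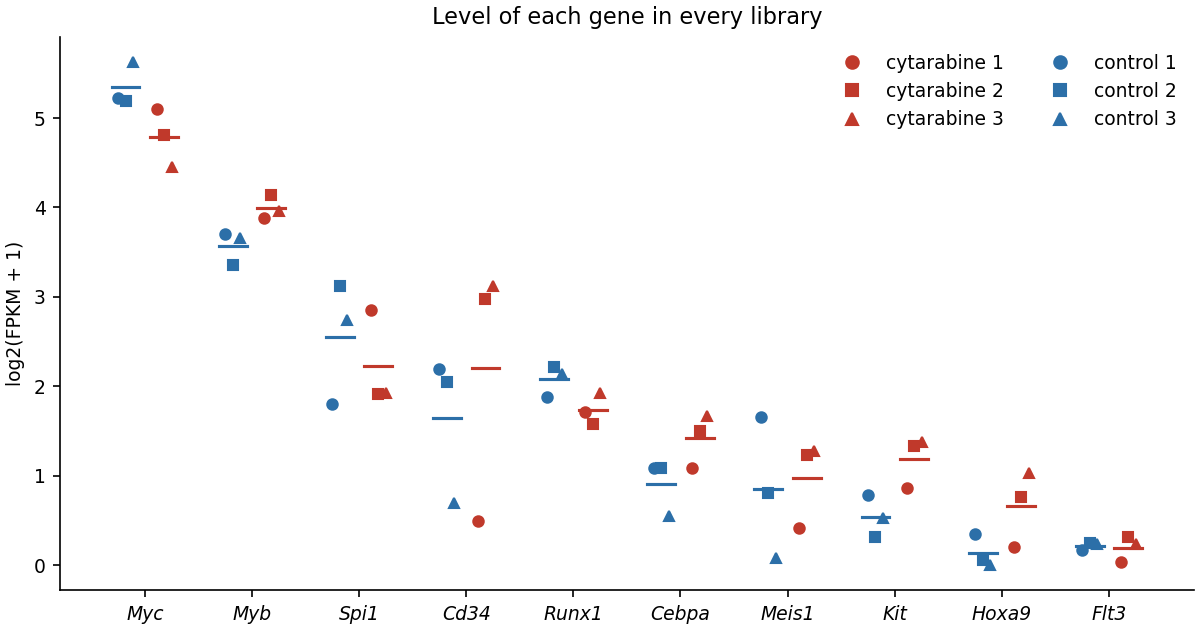
Level of each gene as log2(FPKM + 1) in the 6 libraries, ordered by mean level; points are libraries (red cytarabine, blue control, shape the replicate) and bars are group means. Myc and Myb stand above the other 8 genes in every library, and Cd34 and Meis1 spread widely within both groups.

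Myc lay above 80.7% to 90.8% of all listed genes in a library, and Flt3 above 35.1% to 47.5%. With the length of the longest RefSeq-linked transcript of each gene in the annotation, the values correspond to about 592 to 1196 reads per library for Myc and 396 to 1097 for Myb, but to 1 to 15.9 reads for Flt3 and 0 to 42.1 reads for Hoxa9. On that basis 3 reads of Flt3 equal 0.046 to 0.075 FPKM, and cytarabine 1 (0.022 FPKM) was under that level. Hoxa9 was listed at 0 in control 3. Also under 3 reads were Hoxa9 in control 2 (about 1.4 reads) and Meis1 in control 3 (about 2.0 reads). Such limits cover counting error only.

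Against the label of an AML line, the listed T and NK factors had a higher median (10.9 FPKM) than the other listed myeloid factors (3.37 FPKM). Of 18 T and NK factors, 11 averaged at least 10 FPKM, led by Tcf7 at 342 FPKM and Ikzf1 at 98.1 FPKM. Not all of the 18 are particular to these cells, since Ikzf1 is also expressed in other blood lineages. Among the other myeloid factors 4 of 13 did so, with Cebpg (17.0 FPKM), Klf4 (15.9 FPKM) and Gfi1 (13.8 FPKM) highest. Klf4 ranged from 18.6 to 40.7 FPKM on the colon-rich side and from 0.67 to 2.44 FPKM on the other. The HOX and TALE family outside Hoxa9 and Meis1 had 2 of 19 members at 10 FPKM, both of them partners of HOX proteins, Pbx3 (25.6 FPKM) and Pbx2 (21.2 FPKM), and 7 of the 19 were under 1 FPKM in every library. Stem cell factors reached 10 FPKM in 4 of 15, namely the chromatin regulators Men1, Bmi1 and Kmt2a (listed as Mll1) and the ETS factor Fli1. None of the 9 growth factor receptors did, and Csf1r, the receptor of monocyte growth factor, was highest at 3.13 FPKM.

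**Figure D2:**
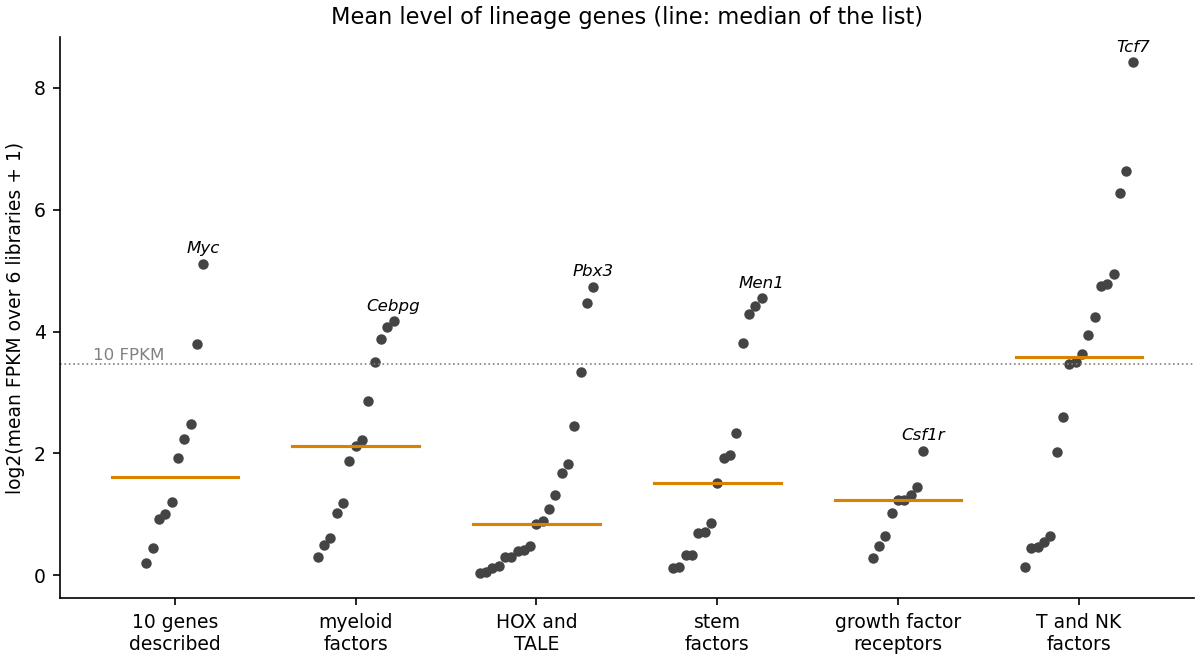
Mean level of each gene over the 6 libraries, as log2(mean FPKM + 1), for the 10 genes and for 5 lists of lineage genes; points are genes sorted by level within a list, the orange line is the list median and the dotted line marks 10 FPKM. Medians were 2.05 FPKM for the 10 genes, 0.795 FPKM for the HOX and TALE list and 10.9 FPKM for the T and NK factors.

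Cd3g, a chain of the T-cell receptor complex, was at 449 to 652 FPKM and Cd3e at 130 to 199 FPKM, whereas Cd4, Cd8a, Cd8b1, Cd5 and Cd247 never reached 1 FPKM. Cd3d, another such chain, was at 7.66, 9.99 and 7.70 FPKM in treated mice compared with 3.61, 4.44 and 4.47 FPKM in controls. Its log2 fold change was 0.86 (adjusted p = 0.136 from limma), against -0.24 for Cd3g and -0.29 for Cd3e. The early granule gene Mpo was at 71.1 FPKM in cytarabine 1 and at 2.33 to 12.3 FPKM in the other 5 libraries. Cpa3, a protease of mast cells and early progenitors, was at 334 to 480 FPKM, while 5 of the 7 mast cell markers stayed under 1 FPKM throughout.

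Whether cytarabine changed these genes was then asked by comparing the 3 treated with the 3 control libraries. With limma on log2(FPKM + 1) over the 11703 genes that averaged 1 FPKM or more, none of the 7 genes of the set that could be tested had an adjusted p under 0.05. Over all genes 0% passed. At an unadjusted p under 0.05, 1 of the 7 was higher (Myb; 7.6% of all genes tested) and 1 was lower (Myc; 9.81%), together 2 of 7 against 17.4%. Groups did not overlap for 2 of the 7 in the higher direction (Myb and Cebpa; 10.9% of all genes) and 1 in the lower (Myc; 12.9%), together 3 of 7 against 23.8%. The median log2 fold change of the 7 was 0.13, and -0.0015 for all genes tested. Hoxa9, Kit and Flt3 had a mean under 1 FPKM and were not tested in this fit.

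**Figure D3:**
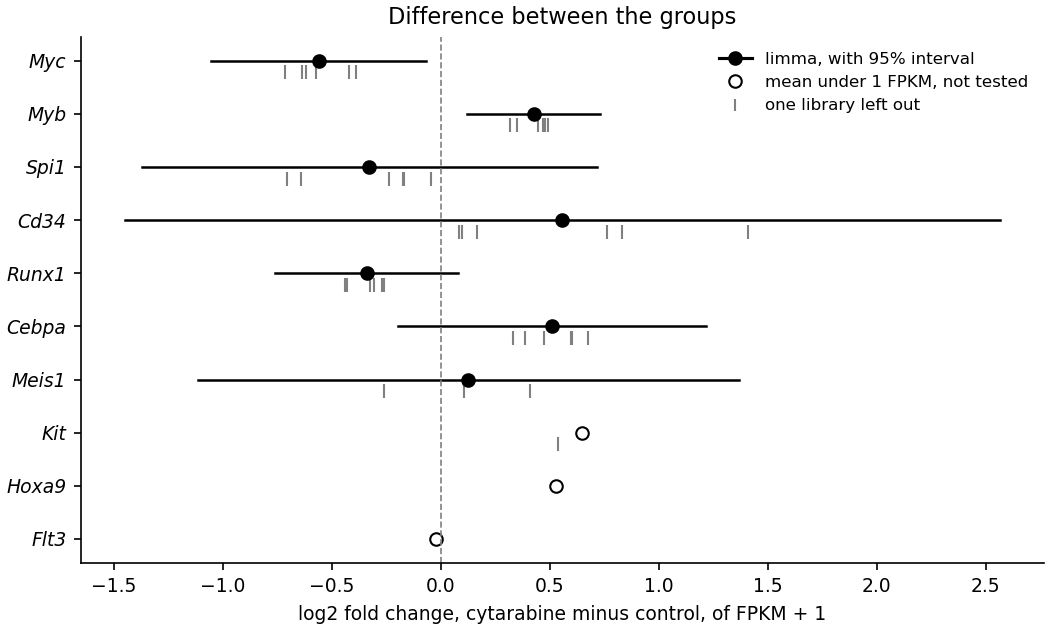
Log2 fold change of FPKM + 1, cytarabine minus control, for each gene; filled points with lines are limma estimates with 95% intervals, open points are untested genes, and grey ticks are estimates with one library left out where the gene still passed the filter on low values. The intervals of Myc and Myb lie on one side of 0, and those of the other 5 tested genes include it.

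The growth regulators Myc and Myb were the tested genes whose 95% intervals did not include 0. Myc lies on chromosome 15 from 61985391 to 61990374 (GRCm38), and its protein activates genes of ribosome assembly and metabolism. The treated libraries 1, 2 and 3 held 33.4, 27.1 and 20.9 FPKM, and the control libraries 1, 2 and 3 held 36.5, 35.6 and 48.5 FPKM; values of other genes follow the same order. Every treated library was below every control library, although cytarabine 1 and control 2 were close. The group means were 27.1 ± 6.27 FPKM (SD, n = 3) and 40.2 ± 7.20 FPKM (SD, n = 3), and the log2 fold change was -0.56 with a standard error of 0.20 (95% interval -1.05 to -0.067; adjusted p = 0.248 from limma). Within the colon-poor libraries the difference was -0.31 and within the colon-rich libraries -0.60, each with a single library on one side. With a colon marker score as covariate it was -0.32 and the unadjusted p from limma was 0.194, which ends that call.

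Myb, on chromosome 10 from 21124935 to 21160984, encodes a factor needed for the renewal of blood progenitors. It was at 13.8, 16.7 and 14.5 FPKM in treated mice compared with 12.0, 9.23 and 11.6 FPKM in controls, again without overlap but in the opposite direction to Myc. The means were 15.0 ± 1.51 FPKM (SD, n = 3) and 10.9 ± 1.5 FPKM (SD, n = 3). The log2 fold change was 0.43 with a standard error of 0.12 (95% interval 0.12 to 0.73; adjusted p = 0.199 from limma). It was 0.38 within the colon-poor and 0.35 within the colon-rich libraries. The colon score as covariate brought it to 0.29 with an unadjusted p of 0.091 from limma, which ends this call too. Both genes kept their groups apart when FPKM was rescaled to equal sums, divided by median-of-ratios factors or quantile normalised. The exact permutation test gave 0.1 for each, the smallest p that 3 mice against 3 allow.

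The myeloid regulators Spi1, Cebpa and Runx1 showed 3 different patterns. Spi1, on chromosome 2 from 91082390 to 91115756, was at 6.22, 2.76 and 2.78 FPKM in treated mice compared with 2.49, 7.72 and 5.69 FPKM in controls. Its libraries separated by the colon division rather than by treatment, at 2.49 to 2.78 FPKM on the colon-rich side and 5.69 to 7.72 FPKM on the other. The log2 fold change was -0.33 (95% interval -1.37 to 0.72; adjusted p = 0.668 from limma), and it was -0.081 within the colon-poor and 0.11 within the colon-rich side. With the colon score as covariate it was 0.48, with an unadjusted p of 0.047 and an adjusted p of 0.327 from limma. Markers of neutrophils, which express Spi1, were low in 2 of the 3 libraries with little Spi1 but at 1443 FPKM in the third, control 1. The 10 markers of monocytes and macrophages summed to 412 FPKM in control 2, the library with most Spi1, and to 105 to 180 FPKM elsewhere. Their lowest sum was in cytarabine 1, where Spi1 was at 6.22 FPKM. The part of either set of markers in the result was not tested.

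Cebpa lies on chromosome 7 from 35119293 to 35121928 and was at 1.126, 1.82 and 2.18 FPKM in treated mice compared with 1.122, 1.124 and 0.462 FPKM in controls. The groups touched: cytarabine 1 was above control 2 only in the third decimal, and they overlapped after rescaling to equal sums and after quantile normalisation. The log2 fold change was 0.51 (95% interval -0.20 to 1.22; adjusted p = 0.38 from limma). It was 0.23 with the colon score as covariate, 0.21 after quantile normalisation and 0.33 without control 3. Within the colon-poor and colon-rich sides it was 0.27 and 0.50. Among the other C/EBP genes, Cebpd had the same direction with overlapping groups (log2 fold change 0.69, adjusted p = 0.311 from limma). It was at 3.00, 5.97 and 5.27 FPKM in treated mice and at 3.82, 2.19 and 1.685 FPKM in controls. The log2 fold changes of Cebpb, Cebpe and Cebpg were -0.39, -0.36 and -0.072. Cebpb was highest in control 1 at 10.8 FPKM and Cebpe in cytarabine 1 at 2.36 FPKM.

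Runx1, on chromosome 16 from 92601466 to 92826149, was at 2.27, 1.99 and 2.79 FPKM in treated mice compared with 2.67, 3.64 and 3.41 FPKM in controls. Of the treated libraries 2 lay below every control and cytarabine 3 lay just above control 1. The log2 fold change was -0.34 (95% interval -0.76 to 0.078; adjusted p = 0.347 from limma), with -0.47 within the colon-poor and -0.13 within the colon-rich side. The paralog Runx3 was far more abundant at 46.4 FPKM on average, and their common partner Cbfb was at 81.1 FPKM. Runx2 was at 5.499, 5.27 and 4.18 FPKM in treated mice compared with 2.59, 2.65 and 3.40 FPKM in controls, with a fold change of 0.62 on the log2 scale (adjusted p = 0.167 from limma).

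The homeobox genes Hoxa9 and Meis1 followed the colon division. Hoxa9, on chromosome 6 from 52223100 to 52231089, was at 0.271 to 1.05 FPKM on the colon-rich side and at 0 to 0.147 FPKM on the other. By group it was at 0.147, 0.688 and 1.05 FPKM in treated mice compared with 0.271, 0.039 and 0 FPKM in controls, and the groups overlapped (exact permutation p = 0.2). Its difference on the log2(FPKM + 1) scale was 0.17 within the colon-poor and 0.55 within the colon-rich side. In the HOXA cluster Hoxa10 and Hoxa13 had the same division, while Hoxa2, Hoxa4 and Hoxa6, none above 0.750 FPKM, did not keep it. Hoxa10 was at 4.80, 7.30 and 2.61 FPKM in the colon-rich libraries and at most 0.311 FPKM in the others, and Hoxa13 at 1.57, 3.91 and 1.14 FPKM against at most 0.073 FPKM. The microRNA gene Mir196b lies within the annotated span of Hoxa9, and the division of reads between them was not tested.
Meis1, on chromosome 11 from 18879817 to 19018985, was at 0.329, 1.35 and 1.43 FPKM in treated mice compared with 2.16, 0.748 and 0.055 FPKM in controls. The highest and the lowest library were both controls. The log2 fold change was 0.13 with a 95% interval from -1.11 to 1.37 (adjusted p = 0.898 from limma), and it was -0.26 without control 3, -0.031 within the colon-poor and -0.40 within the colon-rich side. Smooth muscle expresses Meis1 in many organs, and its markers summed to 953 to 1165 FPKM in the 3 colon-rich libraries. They summed to 167 FPKM in control 2, 122 FPKM in cytarabine 1 and 24.3 FPKM in control 3. Their part in the result was not tested.

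**Figure D4:**
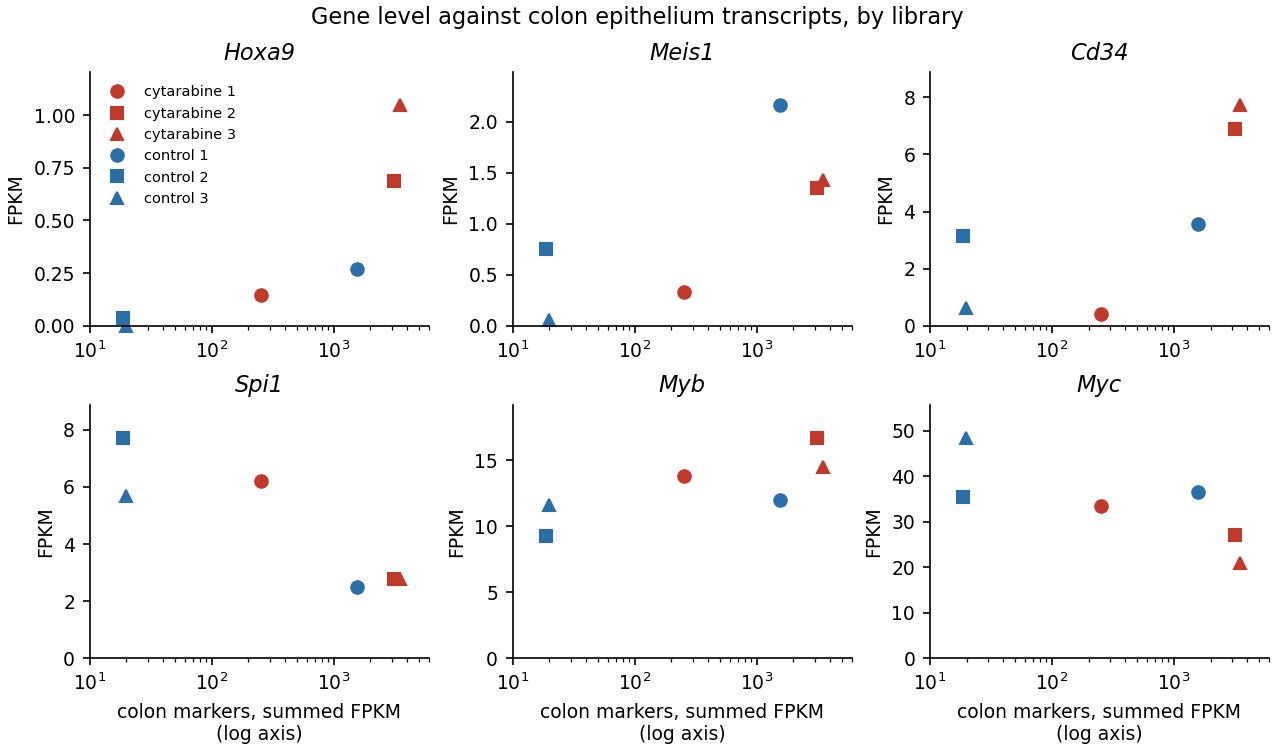
FPKM of 6 genes against the summed FPKM of colon epithelium markers (log axis) in each library; red points are cytarabine, blue points control and the shape gives the replicate. Hoxa9, Meis1 and Cd34 were higher, and Spi1 lower, in the 3 libraries with sums of 1564 FPKM or more, whereas Myb and Myc overlapped between the sides.

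Of Kit, Flt3 and Cd34, only Kit had groups that did not overlap. Among tested genes 10.9% were apart in the same direction, but Kit averaged under 1 FPKM and is outside that share. Kit, the receptor of stem cell factor, lies on chromosome 5 from 75574916 to 75656722. It was at 0.813, 1.52 and 1.59 FPKM in treated mice compared with 0.719, 0.243 and 0.436 FPKM in controls, which is about 53.3 to 144 and 15.1 to 51.2 reads. The mean was 2.81 times as high with cytarabine (1.31 ± 0.43 against 0.466 ± 0.239 FPKM, SD, n = 3), and the exact permutation test gave p = 0.1. In a fit without the filter on low values, the log2 fold change of 0.65 had an adjusted p of 0.305 from limma. The groups overlapped after quantile normalisation. Ano1, a marker of the KIT-bearing pacemaker cells of the gut, was at 3.66 to 10.5 FPKM on the colon-rich side and at 0.039 to 0.554 FPKM on the other, and its part in the values of Kit was not tested. Within the colon-poor side the difference of Kit was 0.44, and within the colon-rich side it was 0.57.
Flt3, the second receptor of this family, lies on chromosome 5 from 147330741 to 147400489. It was at 0.022, 0.244 and 0.173 FPKM in treated mice compared with 0.122, 0.186 and 0.175 FPKM in controls. No difference was detectable at this depth (exact permutation p = 0.8), and the difference was -0.21 within the colon-poor and 0.11 within the colon-rich side.
Cd34, on chromosome 1 from 194938819 to 194961279, had the widest range of the 10 genes on the log2(FPKM + 1) scale. It was at 0.410, 6.88 and 7.72 FPKM in treated mice compared with 3.56, 3.13 and 0.614 FPKM in controls, so that cytarabine 1 was the lowest library and cytarabine 3 the highest. The log2 fold change was 0.56 (95% interval -1.45 to 2.56; adjusted p = 0.706 from limma), 1.41 without cytarabine 1, -0.87 within the colon-poor and 0.86 within the colon-rich side. The endothelial genes Cdh5 and Kdr, which mark another source of CD34, were at 0.389 to 1.03 and 0.723 to 0.952 FPKM on the colon-rich side, at 0.957 and 0.414 FPKM in control 2, and at most 0.069 FPKM in cytarabine 1 and control 3. Pecam1, which endothelium shares with several blood cells, did not follow this division, since control 1 was its lowest library (15.7 FPKM), cytarabine 1 held 21.2 FPKM and the other 4 held 18.8 to 23.3 FPKM. Their part in the values of Cd34 was not tested. An antisense gene that the files also list, Gm16897, overlaps Cd34, and whether strand was used in the quantification is not given in the sources used here.

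The wider pathways were read through 12 lists of 149 genes. The MYC network holds the dimer partner Max and the antagonists Mnt, Mga and the MXD proteins. In it 0 of 9 tested genes had an unadjusted p under 0.05, against 17.4% of all genes tested. Mycn stayed at or under 0.176 FPKM. Of 23 MYC targets in ribosome and metabolite production, 8 were lower (34.8%, against 9.81% of all genes tested) and 0 higher, with a median log2 fold change of -0.15. Npm1, a nucleolar chaperone and the most abundant of them, was at 1183, 936 and 935 FPKM in treated mice compared with 1479, 1379 and 1513 FPKM in controls (log2 fold change -0.52; adjusted p = 0.151 from limma). Srm, which makes spermidine, had a log2 fold change of -0.61 (adjusted p = 0.192) and Fbl, the nucleolar RNA methylase fibrillarin, one of -0.48 (adjusted p = 0.207), both from limma. The count of 8 was 1 with the colon score as covariate, 4 without the trend in eBayes and 3 with the replicate block, and with 1 library left out it was 13 without cytarabine 1, 4 without control 1, 3 without cytarabine 3 or control 2 and 2 without cytarabine 2 or control 3.

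Among stem cell factors 1 of 8 tested genes was higher and 2 were lower at an unadjusted p under 0.05. Of all genes tested, 7.6% were higher and 9.81% lower. Tal1, the basic helix-loop-helix factor of blood stem cells and the erythroid lineage, was at 4.92, 3.90 and 3.56 FPKM in treated mice compared with 1.45, 1.77 and 1.88 FPKM in controls. Its log2 fold change of 0.92 (adjusted p = 0.137 from limma) was larger than that of any of the 7 tested genes of the set. Erythroid markers summed to 308 FPKM in cytarabine 1 and to 41.7 and 50.5 FPKM in cytarabine 2 and 3. In controls they summed to 37.5 to 71.0 FPKM, and their part in the values of Tal1 was not tested. Men1 (log2 fold change -0.30) and Bmi1 (-0.21) were the 2 lower genes, with adjusted p of 0.192 and 0.224 from limma.

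Of all genes tested, 9.81% were lower at an unadjusted p under 0.05. In the HOX and TALE list 1 of 8 tested genes was lower, and of the myeloid factors 1 of 10, both near that share. The first was Pbx2, at 20.1, 17.9 and 16.9 FPKM against 25.2, 22.7 and 24.5 FPKM (log2 fold change -0.38; adjusted p = 0.159 from limma). Gfi1, a repressor needed for neutrophil development, was the 1 of 10 tested myeloid factors at an unadjusted p under 0.05, at 13.5, 10.2 and 9.80 FPKM with cytarabine and 15.1, 17.3 and 16.6 FPKM in controls (adjusted p = 0.178 from limma). Of the growth factor receptors 2 of 6 were lower, Csf3r, the receptor of granulocyte growth factor, with a log2 fold change of -1.30 (adjusted p = 0.192) and Il6ra with one of -0.70 (adjusted p = 0.239), both from limma. Csf3r was at 0.262 to 1.23 FPKM in treated mice compared with 1.65 to 3.83 FPKM in controls. Neutrophils carry this receptor, and 8 of 9 neutrophil markers were lower at an unadjusted p under 0.05; their part in the values of Csf3r and Gfi1 was not tested.

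The ligands were measured in the same libraries. Flt3l was at 8.77 to 14.1 FPKM in treated mice compared with 8.79 to 14.0 FPKM in controls. Kitl, the ligand of KIT, was at 1.99 to 5.25 FPKM on the colon-rich side and at 0.148 to 0.644 FPKM on the other. Of the 4 tested ligands 0 had an unadjusted p under 0.05, against 17.4% of all genes tested. The same count was 0 of 15 for the adaptors and inhibitors downstream of both receptors, where Pik3cd (92.4 FPKM), Ptpn6 (49.9 FPKM) and Grb2 (46.4 FPKM) were highest, 0 of 7 for other stem cell surface proteins, led by Cd44 (50.6 FPKM), Cd47 (28.6 FPKM) and Cd48 (23.8 FPKM), and 0 of 2 for the MYB paralogs. Mybl2 had all treated libraries (12.4 to 14.2 FPKM) at or above the highest control (12.4 FPKM), with a log2 fold change of 0.23 (adjusted p = 0.349 from limma). Of the 13 tested T and NK factors 4 were higher (30.8%, against 7.6% of all genes) and 1 was lower (Bcl11b, against 9.81% of all genes). Id2, an inhibitor of E proteins, was at 102, 79.7 and 119 FPKM in treated mice compared with 43.1, 66.6 and 50.0 FPKM in controls (log2 fold change 0.90; adjusted p = 0.164 from limma). Tox and Ets1 followed with log2 fold changes of 0.27 and 0.34 (adjusted p of 0.183 and 0.192 from limma). NK cell markers moved with these factors: 3 of 4 tested were higher at an unadjusted p under 0.05, and the 5 listed summed to 124 to 155 FPKM in treated and 90.3 to 97.9 FPKM in control libraries, nearly all of it Klrd1 (106.8 FPKM on average). Their part in the values of these factors was not tested.

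For the genes at 1 FPKM or more in all 6 libraries, the tested genes with the most similar pattern were found by Pearson's r of log2(FPKM + 1). These are the highest of 11703 values over only 6 libraries and are given as a description. Myc was followed most closely by Car12, Acin1 and Eif3b (r = 0.997, 0.996 and 0.995). Myb was followed by Idh3b, Triap1 and Smpd2 (r = 0.997, 0.995 and 0.987), Spi1 by Ilf2, Chtf18 and BC048403 (r = 0.998, 0.996 and 0.994) and Runx1 by Dffa, Rcor3 and Dcun1d2 (r = 0.991, 0.983 and 0.981). Ilf2 shared the division seen for Spi1 at a smaller scale, with 62.7 to 64.8 FPKM in the 3 colon-rich libraries and 73.8 to 77.6 FPKM in the others.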

How the data were processed

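RNA was measured in cells sorted as C1498 from 6 mice, 1 library per mouse, with 3 libraries per group. The authors mapped single-end reads to mm10 with TopHat 2.0.13, Bowtie2 2.2.3 and SAMtools 0.1.19, and deposited the FPKM values of Cufflinks 2.2.1 per gene; the annotation, the Cufflinks options and the use of strand are not given in the sources used here. The genes and gene lists were chosen with earlier results of these data known.

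The deposited FPKM were taken to log2(FPKM + 1). Genes averaging 1 FPKM or more (11703 of 23284) entered limma (version 3.58.1, R 4.3.3), a linear model with a trended eBayes prior; p-values were two-sided and adjusted by Benjamini-Hochberg. Fold changes are on the log2(FPKM + 1) scale, which understates changes of low genes. Exact permutation tests were two-sided on the same scale. Library totals were inferred from low FPKM steps of 2744 genes with 1 transcript in GENCODE M21 (GRCm38), assuming fragments of 200 bases; 73.8% to 76.9% of the values used were within 0.1 of a whole read. Positions come from the same annotation, and symbols not listed were matched through RefSeq synonyms.

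Named besides the 10 genes are at most the 3 highest genes and at most the 3 of smallest p of each list, and the 3 genes most similar in pattern. Mycn, Cebpb, Cebpe, Hoxa2, Hoxa4, Hoxa6, Hoxa13, Kmt2a, Bcl11b and the markers shown beside a result were named after their values were seen. Simulated data were used to check the fit. Alternatives were other pseudocounts, filters, scalings and eBayes settings, the replicate block, a colon score as covariate and leaving out each library. Same-numbered libraries are different mice, and their deviations did not correlate positively.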

Additional observations from a re-analysis of the deposited data

How the results depend on the processing

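No alternative that could be run brought the limma adjusted p of any of the 10 genes under 0.05. Myb stayed above 0 and Myc below 0 in all 17 alternatives each, with an unadjusted p under 0.05 in 15 and 12 of them. The exceptions were the colon covariate and the replicate block for both genes, and for Myc also leaving out cytarabine 2, cytarabine 3 or control 3. A replicate block gave adjusted p of 0.567 for Myb and 0.578 for Myc in limma, and 994 genes had an unadjusted p under 0.05 in place of 2038. Deviations of same-numbered libraries correlated at -0.71, -0.25 and -0.59, which gave no sign of a pairing by these numbers, taken from the source names. The deviations include the colon and heart differences between libraries, so they cannot show whether same-numbered libraries were handled together. The titles number the libraries otherwise, and there the groups share a single number, so that no block can be formed from them.

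With the colon score as covariate, the log2 fold change reversed to 0.48 for Spi1, -0.70 for Meis1 and -0.63 for Cd34. Within the colon-rich side it was 0.11 for Spi1, -0.40 for Meis1, 0.11 for Flt3 and -0.13 for Runx1, and within the colon-poor side -0.031 for Meis1, -0.87 for Cd34, 0.17 for Hoxa9 and -0.21 for Flt3. The cause was not tested. Leaving out one replicate at a time gave from -0.26 to 0.41 for Meis1 in the 3 fits where it passed the filter on low values (not without cytarabine 2, cytarabine 3 or control 1), and over all 6 fits from -0.71 to -0.044 for Spi1, from 0.082 to 1.41 for Cd34, from -0.72 to -0.39 for Myc and from 0.32 to 0.49 for Myb. Hoxa9 and Flt3 could be fitted only without the filter on low values (adjusted p = 0.416 and 0.898 from limma).

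With limma, 0 genes passed an adjusted p under 0.05, while 2038 had an unadjusted p under 0.05. A pseudocount of 0.1 brought the first number to 1, eBayes fitted with no trend to 2, robust eBayes to 1, and leaving out one replicate to between 0 and 6. The fits without one replicate gave from 1176 (without control 3) to 4111 (without cytarabine 1) genes at an unadjusted p under 0.05. Genes whose groups did not overlap numbered 2781, and from 3374 to 6586 with one replicate left out, where fewer libraries must stay apart. Of the counts for the gene lists, 80 moved by more than 1.5 times or changed to or from 0, and 362 did neither. About 3 reads per gene, or 0.088 to 0.144 FPKM on a transcript of 2000 bases, limit what can be seen.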
